A study of Mus musculus with 12 samples.

Results

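The comparison described here set 4 mouse libraries labelled AD_B6 against 4 labelled SJL_B6, 8 of the 12 libraries of the series, and followed families of genes rather than single genes. The genes were those with reads in all 12 libraries, taken as a linear value of 0.3 or more, which left 4950 of 23238 symbols (21.3%), called well measured below. A gene read in only some libraries, including one lost from a whole group, is by that rule not among them.

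Cells enriched by magnetic sorting as meningeal lymphatic endothelial cells came from 3 to 4 mice of each strain, per the series' design text, and RNA was read with a Lexogen QuantSeq kit, which sequences transcripts near an end. The AD_B6 libraries and the SJL_B6 libraries share the tissue label meninges, the strain label C57BL/6, an age of 20 weeks and an input of 500 ng of total RNA. The third group, labelled AD_TG, carries the same labels and entered the shared estimate of the spread and the choice of well measured genes, and its values are given beside a few results without a test. The abbreviations are not spelled out and no allele is named, and since the titles differ in AD and in SJL together, what goes with either cannot be told apart. Nothing in the labels ties a library to its own animal, and with 3 mice in a strain 4 libraries cannot be 4 animals. The p-values below therefore measure the spread between these samples, which may be technical.

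The AD_B6 libraries held an estimated 5525224 to 8910950 reads and the SJL_B6 libraries 4071604 to 9247384. Reads fell on 8748 to 11449 genes in AD_B6 and on 10860 to 12217 genes in SJL_B6, with the fewest in AD_B6 replicate 3. That library also had the lowest median correlation with the other 7 across well measured genes, 0.419. Markers of the sorted cell type were uneven. Prox1, the master transcription factor of lymphatic fate, was listed at 0 or 0.03 in the 4 AD_B6 libraries and reached 8.38 and 0.88 in SJL_B6 replicates 1 and 4. Nr2f2, Pdpn, Nrp2 and Foxc2 had reads in all 8 libraries. Their mean log2 values were 10.32, 9.39, 8.87 and 8.36 in AD_B6 and 10.12, 9.52, 9.38 and 9.46 in SJL_B6. Summed lymphatic markers made up 0.0417 to 0.0686% of the linear total in AD_B6 and 0.058 to 0.0764% in SJL_B6. Summed markers of choroid plexus epithelium, Ttr, Kl, Folr1 and Clic6, made up 0.254 to 8.57% in AD_B6 and 0.17 to 5.26% in SJL_B6, mostly from Ttr. Summed fibroblast markers made up 0.167 to 0.779% in AD_B6 and 0.172 to 0.412% in SJL_B6. Such shares of a few genes do not measure the content of a cell type. Of 9 lymphatic markers, 4 had reads in all 8 libraries.

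The meninges are the membranes around the brain. Beside lymph vessels they hold fibroblasts that make collagen, border-associated macrophages that take up debris and present antigen, blood vessels, and, where the choroid plexus is attached, its secretory epithelium. Macrophages and dendritic cells load peptides onto MHC class II molecules in endosomes and show them to T cells, and the amount of class II is set mainly by transcription. Families such as ribosomal proteins, respiratory chain subunits or splicing factors are read in every cell and so sample the common machinery of the mixture.

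No gene passed in this comparison. Limma on all 12 libraries called 0 of 11955 genes (0.0%) at a Benjamini-Hochberg adjusted p below 0.05, with a lowest adjusted p of 0.869. At an unadjusted p below 0.05, 72 well measured genes (1.46% of the 4941 that entered the fit) were higher in AD_B6 and 117 (2.37%) lower, beside 163 (1.36%) higher and 484 (4.05%) lower of all 11955. In 68 of the 4950 genes (1.37%) all 4 AD_B6 libraries lay above all 4 SJL_B6 libraries, and in 75 (1.52%) all lay below. Of the well measured genes, 45.9% had a higher mean in AD_B6 and 54.1% a lower one, with a median difference of -0.07 on the log2 scale. All differences here are AD_B6 minus SJL_B6, all levels are deposited log2 values, and a member called apart is one whose 2 groups of 4 libraries do not overlap.

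The precision behind these values depended on the level. The median SD within a group was 2.21 for the 139 genes with a mean log2 value below 6, 1.15 for the 1425 genes from 8 to 9, and 0.496 for the 117 genes at 12 and over. The median size of the difference followed the same course, 1.21, 0.611 and 0.165 in those 3 classes, and stayed below the SD in each. The 95% interval of a difference reached, in the median, 1.69 to either side over all well measured genes and 0.63 for those at 12 and over. Single low genes therefore carry little, and families were read by counts and medians.

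**Figure D1:**
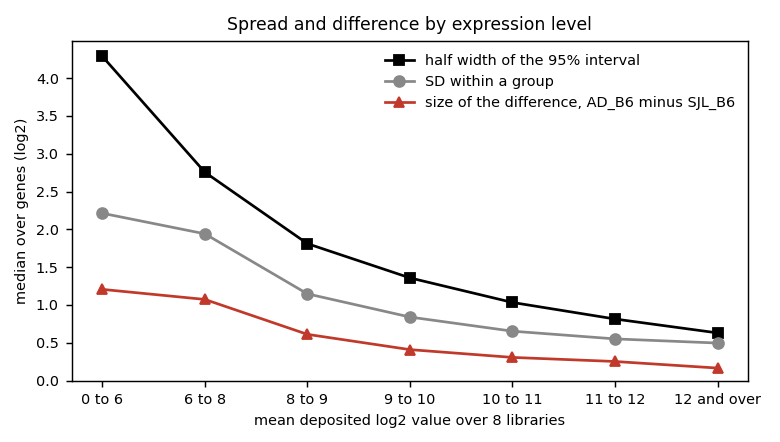
Median over genes of the SD within a group (grey circles), of the distance from the difference to the end of its 95% interval (black squares) and of the size of the difference AD_B6 minus SJL_B6 (red triangles), on the log2 scale, in 7 classes of mean deposited log2 value over the 8 libraries. All 3 lines come down with the level, and the difference stays below the SD within a group in every class.

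Of 90 families listed, 83 had 5 or more well measured members, with 1789 distinct genes between them. The family median lay below 0 in 63 of the 83 and above 0 in 20. It lay within 0.2 of the median of all genes in 60 and within 0.3 in 71, and 54 families had no member apart. The medians ran from -0.88 in pan-endothelial genes to 0.60 in septins, spectrins and ankyrins. The 16 families described first are those whose median departed from that of all genes by 0.3 or more, or whose share of members apart in a direction was at least 2 times the share over all genes and rested on 2 or more members. They were chosen by these values, so their departure is a description and carries no test. No member of any of them passed.

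**Figure D2:**
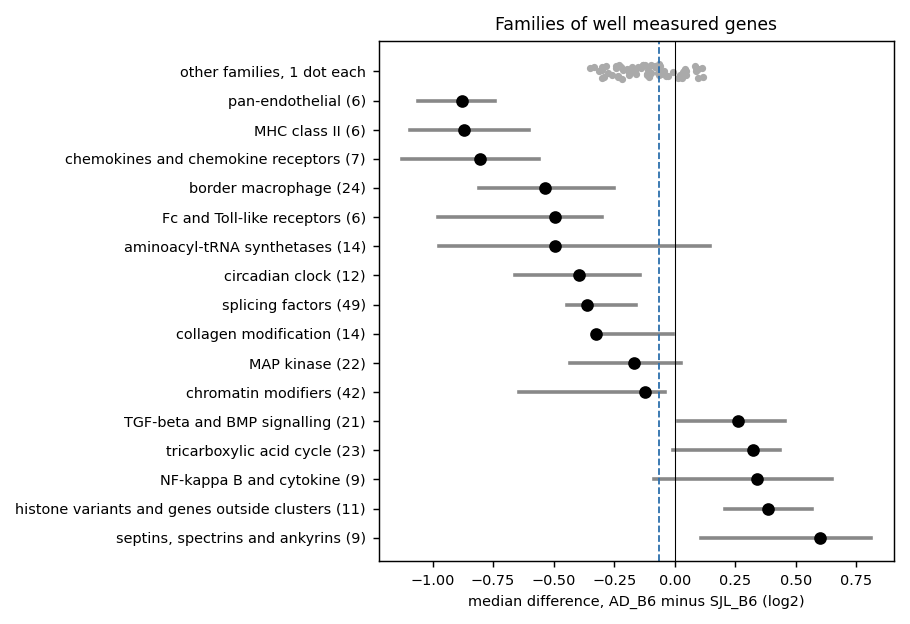
Median difference AD_B6 minus SJL_B6 (log2) of 16 families of well measured genes (black dots, number of members in brackets), with the range over leaving out each of the 8 libraries in turn (grey bars). The dashed line is the median of all well measured genes, -0.07, and the grey dots at the top are the other 67 families, whose medians run from -0.35 to 0.12. Families of antigen presentation, chemokines and macrophages lie on the left, and the bars of aminoacyl-tRNA synthetases, NF-kappa B, MAP kinase and tricarboxylic acid cycle genes cross 0.

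Antigen presentation and immune families were the group with the largest share of lower members. Of their 9 families with 5 or more well measured members, 8 had a median below 0, and of their 85 distinct well measured genes 63 (74.1%) were lower in AD_B6, beside 54.1% of all genes. Only 1 of the 85 was apart, and it was lower, where 1.52% of all genes were apart and lower. The neutrophil granule list had too few well measured genes to be counted among the 9, and its 2 such genes were higher. Summed neutrophil markers made up 0.0244 to 0.281% of the linear total in AD_B6 and 0.00501 to 0.0844% in SJL_B6, with overlap. The lists share members, such as the C1q genes of the complement and macrophage lists, so the families are not separate observations.

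MHC class II had 6 of 11 symbols well measured, all 6 lower in AD_B6, with a median difference of -0.87. The list mean stood at 12.09, 11.22, 11.65 and 10.02 in AD_B6 replicates 1 to 4, against 12.59, 12.98, 12.42 and 11.20 in SJL_B6. The 2 groups overlap, since SJL_B6 replicate 4 lies below AD_B6 replicates 1 to 3. The means were 11.24 ± 0.89 in AD_B6 and 12.30 ± 0.77 in SJL_B6 (SD, n = 4 each). Leaving out each library in turn gave medians from -1.09 to -0.60, and it was -0.60 without AD_B6 replicate 4 or without SJL_B6 replicate 2.

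Among its members, H2-Aa and H2-Ab1 encode the alpha and beta chains of the I-A molecule and H2-Eb1 the beta chain of I-E. H2-Eb1 stood at 13.97, 13.89, 14.02 and 13.31 in AD_B6, against 13.98, 15.40, 14.16 and 13.47 in SJL_B6, a difference of -0.46 (SE 0.30), and SJL_B6 replicate 2 stands above the other 7 libraries. H2-Aa differed by -0.61 (SE 0.25) and H2-Ab1 by -0.82 (SE 0.30). Cd74, the invariant chain that guides class II molecules to the endosome, differed by -0.91 (SE 0.31). The subunits of H2-DM, the protein that exchanges peptides on class II, were low and scattered. H2-DMa stood at 9.53, 6.37, 9.35 and 8.26 in AD_B6, against 10.81, 8.85, 9.64 and 9.31 in SJL_B6, a difference of -1.28 (SE 0.77). H2-DMb1 stood at 10.16, 9.06, 7.63 and 1.22 in AD_B6, against 11.01, 10.67, 9.70 and 5.74 in SJL_B6, a difference of -2.26 (SE 1.58). In each of the 6 genes the lowest of the 8 libraries was an AD_B6 library, and in each the groups overlap. Adjusted p in limma was 0.869 for Cd74, H2-Ab1 and H2-Aa.

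Class II genes share a promoter layout in which an X box, bound by the RFX complex, lies upstream of a Y box, the CCAAT element bound by NF-Y, and the coactivator CIITA assembles on both. The promoters of 3 members are shown because the layout can be read in them, from 250 bases before to 50 bases after the start site (RefSeq, build GRCm38.p6): H2-Aa at chr17:34287774-34288073 on the minus strand, H2-Eb1 at chr17:34305617-34305916 and H2-DMb1 at chr17:34152941-34153240 on the plus strand. Capitals mark CCAAT or its complement ATTGG, and the letters GNAACT, part of the X box, where they stand 26 or 27 bases before an ATTGG.
H2-Aa: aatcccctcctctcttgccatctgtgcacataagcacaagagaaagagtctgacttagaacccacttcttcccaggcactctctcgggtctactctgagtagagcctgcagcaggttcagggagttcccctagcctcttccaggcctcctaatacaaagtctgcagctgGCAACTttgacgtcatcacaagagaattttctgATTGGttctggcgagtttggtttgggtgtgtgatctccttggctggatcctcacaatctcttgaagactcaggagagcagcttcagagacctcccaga
H2-Eb1: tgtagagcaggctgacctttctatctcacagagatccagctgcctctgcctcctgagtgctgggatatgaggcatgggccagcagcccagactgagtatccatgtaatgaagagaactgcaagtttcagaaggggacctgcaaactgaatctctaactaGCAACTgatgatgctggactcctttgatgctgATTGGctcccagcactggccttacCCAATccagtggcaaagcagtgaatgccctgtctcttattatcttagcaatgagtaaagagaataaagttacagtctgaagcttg
H2-DMb1: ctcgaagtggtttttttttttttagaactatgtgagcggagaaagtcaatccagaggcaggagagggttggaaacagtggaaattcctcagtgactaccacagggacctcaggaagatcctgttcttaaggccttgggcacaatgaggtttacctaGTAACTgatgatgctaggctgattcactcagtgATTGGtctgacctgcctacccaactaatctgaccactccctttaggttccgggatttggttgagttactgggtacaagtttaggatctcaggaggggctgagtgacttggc
The ATTGG starts 48 bases before the start site in H2-Aa, 59 in H2-Eb1 and 61 in H2-DMb1, and GNAACT starts 81, 91 and 94 bases before it. Counting both strands, 37.4% of 32851 mouse promoters of this length hold CCAAT, 42.8% hold GNAACT, and 34 (0.103%) hold GNAACT and ATTGG at that spacing. The spacing was read from these 3 sequences after they were chosen. A match is a description of the letters and not of binding.

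Border macrophages were the family with the most even direction among the larger ones. All 24 listed genes were well measured, 20 were lower in AD_B6 and 4 higher, none apart, with a median of -0.54. The list mean stood at 9.90, 8.94, 10.34 and 9.37 in AD_B6, against 9.67, 10.63, 9.93 and 10.48 in SJL_B6, so the groups overlap and AD_B6 replicate 2 is the lowest of the 8. The means were 9.64 ± 0.61 in AD_B6 and 10.18 ± 0.45 in SJL_B6 (SD, n = 4 each), with AD_TG at 10.20 ± 0.24. Without AD_B6 replicate 2 the median was -0.25. The summed macrophage markers Mrc1, Csf1r, Cd163, Adgre1 and C1qa, which belong to this list, made up 0.114 to 0.259% of the linear total in AD_B6 and 0.218 to 0.355% in SJL_B6. In bulk samples fewer macrophages and less of these RNAs per macrophage cannot be told apart, and the part of macrophage content in the class II values was not tested.

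Csf1r, the receptor whose signal keeps macrophages alive, stood at 12.74, 11.69, 12.20 and 11.83 in AD_B6, against 13.24, 13.10, 12.68 and 12.50 in SJL_B6, a difference of -0.77 (SE 0.28). Only AD_B6 replicate 1 lies within the SJL_B6 range. C1qa, C1qb and C1qc encode the chains of C1q, which starts the classical complement cascade and tags debris. C1qb stood at 11.02, 9.80, 11.83 and 10.21 in AD_B6, against 11.29, 12.31, 11.55 and 11.73 in SJL_B6, a difference of -1.004 (SE 0.41), while C1qa differed by -0.70 (SE 0.38) and C1qc by -0.45 (SE 0.41). Laptm5, a lysosomal membrane protein of blood cells, differed by -0.70 (SE 0.46), and Mrc1, the mannose receptor that marks border macrophages, by -0.34 (SE 0.51). The 4 members with a higher mean in AD_B6 differed by 0.29 at most.

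**Figure D3:**
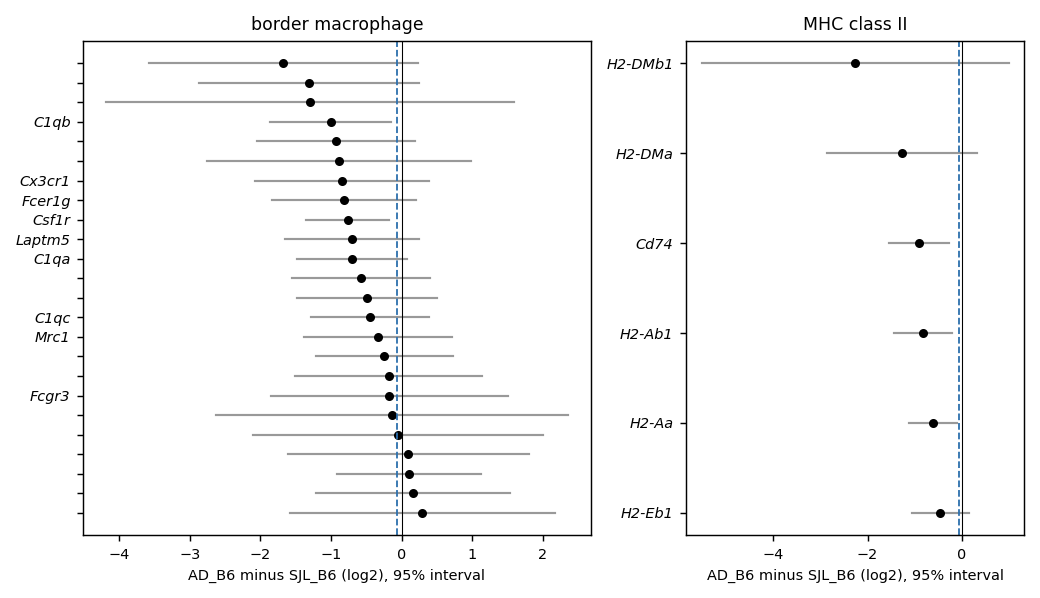
Difference AD_B6 minus SJL_B6 on the log2 scale, with its 95% interval from limma, for the 24 border macrophage genes (left) and the 6 well measured MHC class II genes (right), ordered from lowest to highest, with the genes of the naming rule labelled. Nearly all points lie left of 0 and of the dashed line at the median of all well measured genes, -0.07, and most intervals reach across 0.

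Smaller immune lists had few well measured members. Chemokines and their receptors had 7 of 55, 6 of them lower, with a median of -0.81. The higher member differed by 2.05, and Ccl6 hardly differed, at -0.04 (SE 0.84). Ccl8, a chemokine of tissue macrophages, differed by -0.94 (SE 0.75), Cx3cr1, the fractalkine receptor of macrophages, by -0.84 (SE 0.60), and its ligand Cx3cl1 by -0.81 (SE 0.74). Ccr2, the receptor by which monocytes enter tissue, stood at 8.06, 7.04, 10.49 and 6.34 in AD_B6, against 8.02, 9.08, 8.45 and 9.16 in SJL_B6, and AD_B6 replicate 3 is the highest of the 8. Ccl9, a macrophage chemokine, stood at 1.52, 8.61, 2.37 and 1.22 in AD_B6, against 3.55, 7.75, 7.51 and 5.35 in SJL_B6. The spread of Ccl9 within AD_B6 exceeds its difference of -2.61 (SE 2.08).

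Fc and Toll-like receptor genes had 6 of 24 well measured, 5 of them lower, with a median of -0.50 that ran from -0.98 to -0.30 over single libraries left out. Fcgrt, the receptor that recycles IgG and albumin, stood at 9.52, 4.51, 9.19 and 8.64 in AD_B6, against 10.78, 9.40, 9.90 and 9.39 in SJL_B6, a difference of -1.91 (SE 0.85). AD_B6 replicate 2 stands far below the other 7 and carries much of that size. Irak1, a kinase below Toll-like receptors, differed by -1.47 (SE 0.80), and Fcer1g, the signalling chain shared by Fc receptors, by -0.82 (SE 0.50). Fcgr3, an IgG receptor, differed by -0.18 (SE 0.81) and Irak4, the kinase that acts on Irak1, by -0.15 (SE 1.22). Tlr2, a receptor for bacterial lipoproteins, was the higher member at 1.34 (SE 1.55). MHC class I presentation, given by counts, had 9 of 18 members well measured, 8 lower, with a median of -0.31.

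NF-kappa B and cytokine genes were the immune family on the other side, with 9 of 26 well measured, 5 higher and 4 lower, and a median of 0.34. The median was -0.08 without AD_B6 replicate 3 and -0.08 without SJL_B6 replicate 2, so its sign rests on single libraries. Nfkbia, the inhibitor that holds NF-kappa B in the cytoplasm and is itself one of its targets, stood at 11.09, 10.55, 10.71 and 11.26 in AD_B6, against 11.19, 12.01, 11.90 and 12.22 in SJL_B6. The difference was -0.93 (SE 0.37), and only SJL_B6 replicate 1 lies within the AD_B6 range. Nfkb1, which encodes the p50 subunit, differed by -1.40 (SE 0.97), Rela, the p65 subunit, by -0.50 (SE 1.17), and the tumour necrosis factor receptor gene Tnfrsf1a by 0.34 (SE 0.53).

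Of the vessel families, the pan-endothelial genes had the lowest median of all 83, -0.88, from 6 of 26 members well measured, 5 lower. The list mean was 8.07 ± 0.61 in AD_B6 and 9.05 ± 0.57 in SJL_B6 (SD, n = 4 each), and the highest AD_B6 library, at 8.55, lay just below the lowest SJL_B6 library, at 8.56. Klf2 and Klf4 encode transcription factors that blood flow turns on in endothelium, though other cells read them as well. Klf4 stood at 7.25, 10.44, 9.96 and 9.86 in AD_B6, against 9.66, 11.28, 9.57 and 10.79 in SJL_B6, a difference of -0.95 (SE 0.65). Klf2 stood at 0.95, 8.51, 9.93 and 5.77 in AD_B6, against 7.47, 10.91, 8.66 and 9.67 in SJL_B6, a difference of -2.89 (SE 1.38). AD_B6 replicate 1 holds the lowest value of both genes. Kdr, the main VEGF receptor, differed by -0.61 (SE 0.84), Ramp2, part of the adrenomedullin receptor, by -0.99 (SE 0.91), and Podxl, an apical sialomucin, by 0.39 (SE 0.71). Of the endothelial markers that failed the rule of reads in all 12 libraries, Cdh5 had reads in 4 AD_B6 and 2 SJL_B6 libraries. Pecam1 and Emcn had them in 3 libraries of each group, and Egfl7, Tie1, Erg and Tek in fewer of AD_B6. Summed endothelial markers made up 0.00745 to 0.0309% of the linear total in AD_B6 and 0.0147 to 0.0293% in SJL_B6, with overlap.

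The well measured lymphatic identity genes had another median. Of 18 listed, 6 were well measured, 3 higher and 3 lower, with a median of -0.06, near that of all genes. These 6 are the ones with reads in all 12 libraries. Of the lymphatic markers that failed that rule, Itga9, an integrin of lymphatic valves, had reads in 1 AD_B6 library and 4 SJL_B6 libraries. Prox1 had reads in 0 AD_B6 libraries and 2 SJL_B6 libraries, and Reln, a secreted glycoprotein of lymph vessels, in 0 AD_B6 libraries and 3 SJL_B6 libraries. Flt4, the VEGF receptor of lymph vessels, had reads in 1 AD_B6 library and 2 SJL_B6 libraries, and Lyve1, a hyaluronan receptor, in 3 AD_B6 libraries and 4 SJL_B6 libraries. The value of Prox1 in SJL_B6 replicate 4, 0.88, stands for very few reads. Fewer genes of any kind were read in AD_B6, 8748 to 11449 against 10860 to 12217 in SJL_B6. The share of all genes read in fewer AD_B6 libraries was not counted, so whether these counts are particular to lymphatic markers cannot be told. VEGF and angiopoietin signalling had 4 higher and 4 lower of 8, with a median of -0.07, and the Notch pathway 4 higher and 3 lower of 7, with a median of 0.04. Integrins and focal adhesion genes had 14 lower of 18, with a median of -0.30 and no member apart.

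Among matrix families, the collagen modification genes held 2 members apart, both higher in AD_B6, in a family that was otherwise mostly lower. Of 14 well measured members of 23, 5 were higher and 9 lower, with a median of -0.33 that became -0.01 without AD_B6 replicate 2. The 2 members apart made up 14.3% of the 14, beside 1.37% of all genes. They are the subunits of the same enzyme, collagen prolyl 4-hydroxylase, which makes the hydroxyproline that keeps the collagen helix stable. P4ha1, the catalytic alpha subunit, stood at 9.41, 9.19, 10.64 and 9.996 in AD_B6, against 8.18, 7.94, 9.02 and 9.05 in SJL_B6, a difference of 1.26 (SE 0.74). P4hb, the beta subunit and also a protein disulfide isomerase of the endoplasmic reticulum, stood at 10.64, 10.26, 10.32 and 10.97 in AD_B6, against 8.80, 9.62, 9.43 and 9.42 in SJL_B6, a difference of 1.23 (SE 0.51). The adjusted p was 0.869 for both in limma.

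Other partners in collagen folding did not share a direction. Serpinh1, the collagen chaperone HSP47, differed by 0.87 (SE 0.61), Ppib, the prolyl isomerase of the endoplasmic reticulum, by -0.37 (SE 0.60), and Pcolce, which speeds the trimming of procollagen, by -0.35 (SE 0.45). Sparc, a collagen-binding matrix protein, stood at 12.47, 12.06, 12.81 and 12.86 in AD_B6, against 12.91, 12.55, 12.64 and 12.53 in SJL_B6, a difference of -0.11 (SE 0.26). The 15 well measured collagen chains had a median of -0.14 with 6 higher and 9 lower, and the meningeal fibroblast genes a median of -0.18 with 4 higher and 13 lower of 17.

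TGF-beta and BMP signalling had 21 of 40 well measured, 14 higher and 7 lower in AD_B6, with a median of 0.26 that became 0.01 without AD_B6 replicate 3. None was apart. The Id genes, targets of BMP signalling whose products block basic helix-loop-helix factors, were split. Id3 stood at 10.73, 11.22, 12.17 and 12.04 in AD_B6, against 10.30, 10.71, 10.25 and 11.69 in SJL_B6, a difference of 0.80 (SE 0.41), with SJL_B6 replicate 4 giving the overlap. Id2 stood at 8.10, 9.07, 10.25 and 10.82 in AD_B6, against 11.46, 9.83, 10.34 and 10.68 in SJL_B6, a difference of -1.02 (SE 0.62). The ligand Bmp4 differed by 0.44 (SE 0.58), the receptors Bmpr2 by 0.34 (SE 0.54) and Tgfbr2 by 0.26 (SE 0.72), and Ltbp3, which stores latent TGF-beta in the matrix, by 0.13 (SE 0.55).

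Circadian clock genes had members apart in both directions, as did 2 other families, heterogeneous nuclear ribonucleoproteins and DEAD and DEAH box helicases, with 1 in each direction. In the clock, CLOCK and BMAL1 drive the Per and Cry repressors, and a second loop sets the activators ROR against the repressors REV-ERB, encoded by Nr1d1 and Nr1d2, at shared DNA elements. Of 22 listed genes 12 were well measured, 10 lower and 2 higher, with a median of -0.39. Of the 12, 1 was apart and higher (8.33%, beside 1.37% of all genes) and 2 apart and lower (16.7%, beside 1.52%). The family mean stood at 8.94, 8.93, 9.03 and 8.62 in AD_B6, against 9.64, 9.69, 9.61 and 8.98 in SJL_B6. Only SJL_B6 replicate 4 comes down to the AD_B6 range. The means were 8.88 ± 0.18 in AD_B6 and 9.48 ± 0.34 in SJL_B6 (SD, n = 4 each), with AD_TG at 9.14 ± 0.24. The median was -0.14 without SJL_B6 replicate 3 and -0.66 without SJL_B6 replicate 4.

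Rora, which encodes the activator ROR alpha, stood at 9.49, 9.55, 8.70 and 9.19 in AD_B6, against 10.80, 11.11, 10.93 and 10.84 in SJL_B6. The difference was -1.69 with a 95% interval of -2.69 to -0.70 (limma, unadjusted p = 0.0018, adjusted p = 0.869), and 1.25 lay between the groups. Nr1d2, which encodes the repressor REV-ERB beta, stood at 10.15, 10.42, 9.62 and 10.68 in AD_B6, against 8.83, 8.51, 9.10 and 8.31 in SJL_B6, a difference of 1.53 (SE 0.59; limma, adjusted p = 0.869). Rora and Nr1d2 lay apart in opposite directions, but members apart were named first, so this describes chosen genes and is no test of the loop. Nr1d1, the other REV-ERB gene, stood at 10.77, 9.48, 8.08 and 9.37 in AD_B6, against 9.76, 9.70, 10.56 and 9.15 in SJL_B6, and its groups overlap throughout.

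Csnk1d, the kinase that marks PER proteins for decay, stood at 10.48, 10.51, 8.95 and 9.86 in AD_B6, against 11.49, 10.69, 10.82 and 10.77 in SJL_B6, a difference of -0.996 (SE 0.48). It was apart by the small gap between AD_B6 replicate 2 and SJL_B6 replicate 2. Per1 differed by -0.42 (SE 0.63), and Tef, an output transcription factor that follows the clock in many tissues, by 0.34 (SE 0.53). Clock itself, named after its values were seen, stood at 4.72, 1.41, 8.93 and 7.93 in AD_B6, against 9.42, 9.22, 7.43 and 9.83 in SJL_B6, a difference of -3.23 (SE 1.29). The labels give no time of day for the tissue. Pineal markers, from a tissue with a strong daily rhythm, made up 0.0236 to 0.246% of the linear total in AD_B6 and 0.0669 to 0.17% in SJL_B6, so their ranges overlap, and their part in these values was not tested.

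The promoter of Nr1d2 is shown because the element that ROR and REV-ERB share can be looked for in it. It lies at chr14:18239057-18239356 on the minus strand of GRCm38.p6 (RefSeq), and capitals mark AGGTCA, the core of that element, which starts 77 bases before the start site.
Nr1d2: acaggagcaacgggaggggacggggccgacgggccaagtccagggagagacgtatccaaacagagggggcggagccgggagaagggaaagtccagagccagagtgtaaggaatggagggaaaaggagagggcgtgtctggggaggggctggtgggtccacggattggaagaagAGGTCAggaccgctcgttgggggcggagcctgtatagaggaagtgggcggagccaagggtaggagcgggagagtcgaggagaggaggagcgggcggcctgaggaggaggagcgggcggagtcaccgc
Counting both strands, 16.3% of 32851 promoters of this length hold AGGTCA, so this match alone is common. Only the core was searched for and not the bases beside it, so the match does not show that the whole element is present.

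**Figure D4:**
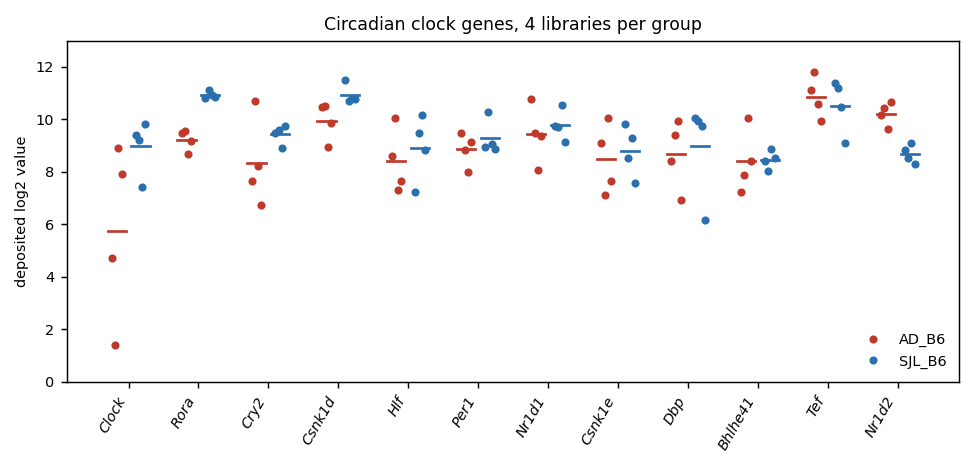
Deposited log2 values of the 12 well measured circadian clock genes in the 4 AD_B6 libraries (red, left of each pair) and the 4 SJL_B6 libraries (blue, right of each pair), with a bar at each group's mean, ordered from the lowest to the highest difference. Rora and Csnk1d lie apart with AD_B6 lower, Nr1d2 lies apart with AD_B6 higher, and the groups of the other 9 genes overlap.

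MAP kinase genes had 22 of 41 well measured, 10 higher and 12 lower, with a median of -0.17 that became 0.02 without AD_B6 replicate 2. The 2 members apart were both lower (9.09% of the family, beside 1.52% of all genes). Grb2, the adaptor that links receptors to SOS, stood at 10.98, 9.65, 10.59 and 10.97 in AD_B6, against 11.45, 10.999, 11.35 and 11.52 in SJL_B6, a difference of -0.78 (SE 0.42), with almost no gap between AD_B6 replicate 1 and SJL_B6 replicate 2. Mapk3, which encodes ERK1, differed by -0.78 (SE 0.41), Braf, a RAF kinase of the pathway, by -0.83 (SE 0.69), Map4k4 by -0.27 (SE 0.42) and the JNK gene Mapk9 by 0.36 (SE 1.002). The other signalling families lay near the median of all genes: calcineurin and NFAT at -0.07 over 17 genes, immediate early genes at -0.13 over 21, insulin and mTOR at 0.09 over 22.

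Splicing factors entered the 16 families through 2 members apart, not through their median. Of 61 listed genes 49 were well measured, 30 lower and 19 higher, with a median of -0.36. The list mean stood at 9.76, 9.28, 8.90 and 9.43 in AD_B6, against 9.65, 9.71, 9.64 and 9.77 in SJL_B6. AD_B6 replicate 3, the library with the fewest genes read, is the lowest, and AD_B6 replicate 1 lies within the SJL_B6 range. The SJL_B6 libraries were close together, 9.69 ± 0.06, where AD_B6 had 9.34 ± 0.36 (SD, n = 4 each), and AD_TG was close together too, at 9.64 ± 0.05. Without AD_B6 replicate 3 the median was -0.24, without AD_B6 replicate 2 -0.16, without SJL_B6 replicate 1 -0.24 and without SJL_B6 replicate 4 -0.21.

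The 2 splicing members apart were lower (4.08%, beside 1.52% of all genes). Ddx39b, the helicase UAP56 that couples splicing to export, stood at 10.35, 10.57, 10.10 and 10.77 in AD_B6, against 11.71, 11.40, 11.27 and 10.85 in SJL_B6, a difference of -0.86 (SE 0.41). Sf3b4, part of the SF3b complex of the U2 snRNP, stood at 8.73, 8.34, 2.72 and 7.03 in AD_B6, against 9.33, 9.61, 9.12 and 8.85 in SJL_B6, a difference of -2.52 (SE 1.03), much of it from AD_B6 replicate 3. Of the abundant members, Son differed by -0.03 (SE 0.25), Srrm2 by 0.12 (SE 0.33), Srrm1 by -0.45 (SE 0.34), and U2af2, which reads the polypyrimidine tract, by -0.52 (SE 0.39). Heterogeneous nuclear ribonucleoproteins had a median of -0.23 with 19 lower of 29.

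Aminoacyl-tRNA synthetases, which charge tRNAs with amino acids, had 14 of 36 well measured, 9 lower and 5 higher, with a median of -0.50. That median was 0.14 without AD_B6 replicate 3, -0.97 without AD_B6 replicate 1 and -0.14 after quantile normalization, so neither its sign nor its size is settled. Gars, the glycyl enzyme, stood at 8.55, 4.96, 7.93 and 8.96 in AD_B6, against 10.28, 9.17, 9.17 and 9.46 in SJL_B6, a difference of -1.92 (SE 0.81), and was apart. The subunits of the phenylalanyl enzyme had opposite signs: Farsb stood at 10.16, 11.58, 10.21 and 9.63 in AD_B6, against 9.97, 8.29, 7.46 and 9.77 in SJL_B6, a difference of 1.52 (SE 0.65), while Farsa differed by -0.81 (SE 0.91) with AD_B6 replicate 3 at 4.82. Lars2, the mitochondrial leucyl enzyme, differed by 0.62 (SE 0.67), Aars by -0.63 (SE 0.70) and Nars by -1.14 (SE 0.69). The 82 cytosolic ribosomal protein genes, of 86 listed, had a median of -0.11 with 32 higher and 50 lower, and the 39 translation factors a median of 0.05.

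Chromatin modifiers had 42 of 63 well measured, 17 higher and 25 lower, with a median of -0.12, close to that of all genes. The median was -0.65 without SJL_B6 replicate 4. The 3 members apart were all lower (7.14%, beside 1.52% of all genes). Hdac11, the class IV histone deacetylase, showed the widest gap of the genes described here. It stood at 1.52, 3.76, 4.71 and 1.22 in AD_B6, against 8.53, 8.52, 8.92 and 9.63 in SJL_B6, with 3.81 between the groups. The difference was -6.10 (SE 1.74; limma, unadjusted p = 0.00176, adjusted p = 0.869), and AD_TG stood at 6.75 ± 1.94 (SD, n = 4). The AD_B6 values stand for few reads, so the size of this difference is poorly set. Crebbp, the acetyltransferase CBP, stood at 5.95, 9.92, 4.31 and 8.88 in AD_B6, against 10.29, 10.09, 10.25 and 10.20 in SJL_B6, a difference of -2.94 (SE 0.94). Kmt2d, a methyltransferase that marks enhancers, stood at 9.16, 9.16, 8.21 and 8.99 in AD_B6, against 9.73, 9.33, 9.79 and 9.42 in SJL_B6, a difference of -0.69 (SE 0.66). The related Kmt2c differed by -0.85 (SE 0.57), Kmt2e by -0.03 (SE 0.38), and Brd2, a reader of acetylated histones, by 0.35 (SE 0.47).

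Histone genes that make polyadenylated RNA were mostly higher, 8 of 11 well measured of 16 listed, with a median of 0.39, none apart. The median was 0.03 when only libraries that list unread genes at 0 were kept. H3f3b, a gene of histone H3.3, stood at 11.89, 12.24, 12.12 and 11.79 in AD_B6, against 11.41, 12.11, 10.93 and 11.88 in SJL_B6, a difference of 0.43 (SE 0.35). H2afy, the gene of macroH2A1, differed by 0.59 (SE 0.44), H2afz by 0.39 (SE 0.56) and H2afv by 0.31 (SE 0.51). Hist1h2bc and Hist2h2be, at 0.38 (SE 0.43) and 1.03 (SE 0.72), belong to histone H2B genes of near identical sequence, so the reads behind each are uncertain.

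In energy metabolism, the tricarboxylic acid cycle had 23 of 31 genes well measured, 13 higher and 10 lower, with a median of 0.32. The median was -0.01 without AD_B6 replicate 2 and 0.09 without SJL_B6 replicate 4. Sdhc, the membrane anchor of succinate dehydrogenase, differed by 0.86 (SE 0.50), whereas its catalytic subunit gene Sdha differed by -0.25 (SE 0.36). Mdh1 and Mdh2, the cytosolic and mitochondrial malate dehydrogenases, differed by -0.04 (SE 0.42) and -0.17 (SE 0.50), and Ogdh, the first subunit of the oxoglutarate dehydrogenase complex, by -0.72 (SE 0.48). Respiratory complex I had 17 higher and 17 lower of 34, with a median of 0.03, complexes II to V 25 higher and 15 lower of 40, with a median of 0.10, and glycolysis 11 higher and 10 lower of 21, with a median of 0.08. Sterol and fat synthesis had 12 lower of 16, with a median of -0.30.

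Septins, spectrins and ankyrins, which form the membrane skeleton and its anchors, had the highest median, 0.60, with 8 of 9 well measured members higher, of 23 listed, and none apart. The list mean stood at 10.43, 10.22, 10.10 and 10.18 in AD_B6, against 10.10, 10.25, 10.17 and 8.46 in SJL_B6. SJL_B6 replicate 4 alone was low, and without it the median was 0.11. Sept8 stood at 11.72, 11.21, 11.62 and 10.49 in AD_B6, against 11.43, 10.81, 9.96 and 7.31 in SJL_B6, a difference of 1.39 (SE 0.64). The spectrin genes Sptbn1 and Sptan1 differed by 0.56 (SE 0.37) and 0.25 (SE 0.41), the adducin genes Add3 and Add1, which cap actin at the spectrin net, by 0.70 (SE 0.45) and 0.02 (SE 0.49), and Sept7 by -0.50 (SE 0.62).

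The remaining 67 families are given by counts. Their medians ran from -0.35 to 0.12, and none had more than 1 member apart in a direction. In proteostasis and traffic, 271 of 489 distinct genes (55.4%) were lower, with 3 apart and higher and 4 apart and lower. Proteasome subunits had 22 lower of 34 and a median of -0.35, the lowest of the 67. The unfolded protein response had 16 lower of 23 and a median of -0.33, heat shock proteins and chaperones 28 higher of 52 and a median of 0.12, and lysosomal enzymes 23 lower of 39 and a median of -0.15. The 71 SNARE and tethering genes had a median of 0.03 and the 87 solute carriers one of -0.05. In the cytoskeleton, actin and its regulators had 28 lower of 42 and a median of -0.22. Among brain-related lists, the 15 amyloid precursor and secretase genes had a median of 0.05 and the 13 amyloid clearance genes one of -0.01. The 27 mouse chromosome 16 genes that correspond to the Down syndrome region had a median of -0.03. Too few members were well measured to give a median for neutrophil granule genes, with 2 of 15, B cell genes, with 2 of 8, myelin genes, with 4 of 19, and T and NK cell genes, with 0 of 10.

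Of the 12 genes in each direction with the lowest unadjusted p, all had an adjusted p of 0.869 in limma and 18 were apart. Over all well measured genes, 1.37% were apart and higher and 1.52% apart and lower. These genes were chosen by p in the same libraries, so a large share apart follows from the choice. In the lower direction beside Hdac11, Rora and Crebbp, Snhg11, a long noncoding RNA of neurons, stood at 10.24, 10.41, 9.53 and 8.99 in AD_B6, against 11.24, 11.76, 10.88 and 11.13 in SJL_B6, a difference of -1.46 (SE 0.44). Tns1, the focal adhesion protein tensin 1, stood at 7.35, 9.23, 9.13 and 10.23 in AD_B6, against 10.68, 10.66, 11.04 and 10.70 in SJL_B6, a difference of -1.79 (SE 0.56). Spg7, paraplegin of the mitochondrial AAA protease, stood at 8.27, 8.44, 8.35 and 7.59 in AD_B6, against 11.21, 10.63, 9.34 and 9.35 in SJL_B6, a difference of -1.97 (SE 0.63). In Spg7 the AD_B6 libraries lie close together and the SJL_B6 libraries are the scattered ones.

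Several genes of this direction were scattered within AD_B6. Rac2, the Rac GTPase of blood cells, stood at 8.27, 2.77, 6.75 and 1.86 in AD_B6, against 8.64, 10.70, 8.60 and 9.14 in SJL_B6. Scaf11, a splicing-associated factor, stood at 7.79, 8.09, 6.90 and 4.27 in AD_B6, against 9.54, 9.62, 10.07 and 9.51 in SJL_B6. Nrxn2, B4galt6, Ppargc1b and Arid4b had differences of -3.20, -3.62, -3.28 and -3.43, with SDs from 2.41 to 3.10 within AD_B6 and from 0.54 to 1.08 within SJL_B6. Of these, Ppargc1b, a coactivator of mitochondrial genes, and Arid4b, a subunit of Sin3 deacetylase complexes, had overlapping groups.

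In the higher direction, Cap1, which recycles actin monomers, stood at 9.94, 9.43, 8.80 and 10.63 in AD_B6, against 6.49, 7.60, 8.35 and 7.83 in SJL_B6, a difference of 2.13 (SE 0.73). Arih1, an ariadne ubiquitin ligase that works with cullins, stood at 8.98, 9.62, 10.75 and 9.88 in AD_B6, against 7.42, 7.09, 8.44 and 7.92 in SJL_B6, a difference of 2.09 (SE 0.76). Lrsam1, another ubiquitin ligase, stood at 8.34, 9.46, 9.61 and 9.64 in AD_B6, against 6.84, 6.73, 7.99 and 6.88 in SJL_B6, a difference of 2.15 (SE 0.80). These 3 had like spreads in both groups.

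Ints8, a subunit of the Integrator complex, had the widest gap of this direction, 2.82. It stood at 7.996, 8.68, 8.55 and 6.36 in AD_B6, against 1.76, 3.54, 2.63 and 1.82 in SJL_B6, a difference of 5.46 (SE 2.03), and AD_TG was scattered at 6.57 ± 3.32 (SD, n = 4). Cript, a small protein that binds PSD-95, stood at 7.74, 8.73, 9.63 and 6.24 in AD_B6, against 3.02, 2.18, 3.27 and 4.94 in SJL_B6, a difference of 4.73 (SE 1.56). These SJL_B6 values stand for few reads, so the size of these differences is poorly set. Mthfd1, the folate enzyme, Med22 of Mediator, Josd1, a deubiquitinase, Fbxo3, an F-box protein, Mid1ip1, Tmem248 and 4833439L19Rik differed by 2.89 to 4.10, with SDs from 0.37 to 0.94 within AD_B6 and from 1.43 to 3.73 within SJL_B6.

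**Figure D5:**
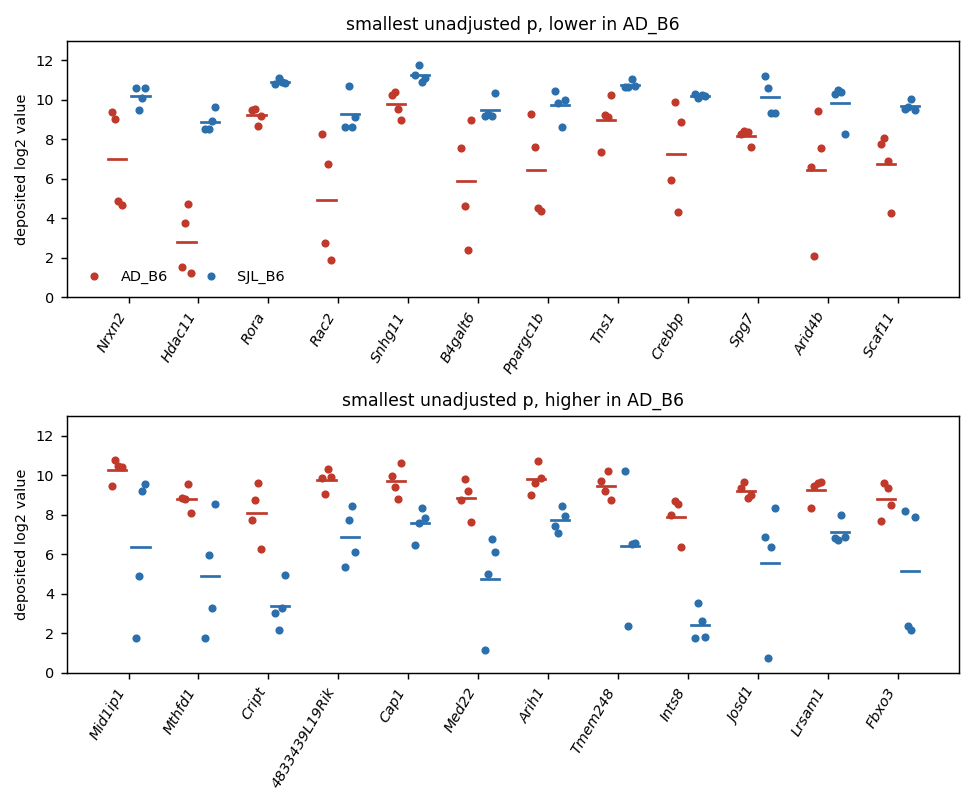
Deposited log2 values of the 12 well measured genes with the smallest unadjusted p in each direction, lower (top) and higher (bottom) in AD_B6, in the 4 AD_B6 libraries (red, left of each pair) and the 4 SJL_B6 libraries (blue, right of each pair), with a bar at each group's mean. The scattered group is mostly the one with the lower mean: AD_B6 in the top panel and SJL_B6 in the bottom panel.

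The 68 genes apart and higher had differences from 0.26 to 5.46 with a median of 1.53, and the 75 apart and lower from -6.10 to -0.69 with a median of -1.88. No gene with a mean log2 value of 12 or more was apart, of 117, whereas 20 higher and 26 lower were apart among the 1425 genes from 8 to 9. The third group is given here as values only, since these genes were chosen by the AD_B6 and SJL_B6 values. The AD_TG mean was nearer the SJL_B6 mean in 36 of the 68 higher genes and in 47 of the 75 lower genes, and nearer the AD_B6 mean in 32 and 28. The same share over all well measured genes was not counted.

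Rcan1, the mouse gene of DSCR1 in the series title and an inhibitor of calcineurin, and App, the gene of the amyloid precursor, overlapped between the groups. Rcan1 stood at 8.74, 9.55, 9.54 and 7.34 in AD_B6, against 9.05, 5.21, 7.17 and 8.18 in SJL_B6, and its 95% interval of -0.75 to 3.53 around a difference of 1.39 holds 0. For App the means were 13.02 ± 0.22 in AD_B6 and 12.65 ± 0.29 in SJL_B6, and its interval of -0.13 to 0.86 around 0.36 holds 0 as well. Neither gene tests the group labels, since no altered allele is named in them.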

How the data were processed

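Each library's deposited file lists 23282 entries, a symbol with the authors' log2 value. The linear value is 2 to that power less a pseudocount of 1. The submitters' processing notes name bedtools, Bowtie2 and hg19 without versions, and the scaling is not given in the sources used here. That build is human and the symbols are of the mouse, so the files' values were matched to mouse genes by symbol only (23132 of 23238, 99.5%, in RefSeq). Of entries with a repeated symbol the one with the highest mean was kept, which left out 44. Reads were estimated from the even steps of low values; 91.3 to 100% of values below 20 reads lay within 0.15 of a whole step. The linear values are not counts, so limma 3.58.1 in R 4.3.3 (lmFit, eBayes with trend) was fitted to the deposited log2 values of 11955 genes with a linear value of 10 or more in 4 or more of the 12 libraries, with Benjamini-Hochberg adjustment over all of them, two-sided, at 0.05. Sums of markers are shares of the linear total. The fit was tested on simulated data.

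Families were described by counts and medians without a test. Named genes are Rcan1, App, the 12 well measured genes with the smallest unadjusted p in each direction, and up to 6 members of each family described in full, those apart first and then those with the highest mean. Members and lists were chosen with earlier results of these data known. Leaving out each library, other scalings, pseudocounts, filters and fits were tried. Some named members are not reported here.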

Additional observations from a re-analysis of the deposited data

Results flagged for a closer look

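Of 274 groups of 4 libraries looked at, 18 held a value far from the other 3, where chance gives about 1 in 20. In AD_B6, replicate 1 was low in Lrsam1 at 8.34 (the others 9.46 to 9.64). Replicate 2 was high in Ccl9 at 8.61 (1.22 to 2.37) and low in Mapk9 at 7.32 (9.91 to 10.01). Replicate 3 was low in Farsa at 4.82 (10.05 to 11.10) and in Mdh1 at 10.27 (12.17 to 12.46), and replicate 4 was low in Ccl6, a chemokine of myeloid cells, at 6.03 (9.65 to 10.08).

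In SJL_B6, replicate 1 was low in Mrc1 at 9.95 (11.54 to 11.81) and high in Csnk1d at 11.49 (10.69 to 10.82). Replicate 2 was high in Ppib at 10.76 (9.24 to 9.48) and in Per1 at 10.28 (8.88 to 9.04), and low in Mapk9 at 5.34 (9.85 to 10.49), the same gene and replicate number as in AD_B6. Its mean over the tricarboxylic acid cycle genes was low at 8.55 (9.20 to 9.31). Replicate 3 was high in Lrsam1 at 7.99 (6.73 to 6.88) and in Tns1 at 11.04 (10.66 to 10.70). Replicate 4 was high in B4galt6 at 10.33 (9.16 to 9.30) and low in Arid4b at 8.25 (10.30 to 10.51). Replicate 4 was also low in 2 family means, the circadian clock at 8.98 (9.61 to 9.69) and the septins, spectrins and ankyrins at 8.46 (10.10 to 10.25).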

How the results depend on the processing

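Limma called 0 genes in the comparison of AD_B6 with SJL_B6 under every alternative run, and no other tool was run. The counts at an unadjusted p below 0.05, 72 higher and 117 lower, were 40 and 72 when well measured meant a linear value of 10 or more in all 12 files, which keeps fewer genes. They were 90 and 97 after quantile normalization, which moved the median difference of all genes to 0.013, and 53 and 84 in a fit on the 8 libraries alone. Leaving out 1 library at a time gave 58 to 106 higher and 83 to 184 lower, with 184 lower without AD_B6 replicate 1 and 178 without AD_B6 replicate 3. The genes apart, 68 higher and 75 lower, became 117 to 145 higher and 129 to 151 lower with a library left out, since fewer libraries overlap less by construction. Libraries that list unread genes at 0, an alternative chosen after seeing the data, gave 75 higher and 37 lower at an unadjusted p below 0.05, more higher than lower, for which the cause was not tested. They gave 410 higher and 487 lower apart, where fewer samples overlap less. The families with a median below 0, 63 of 83, numbered 46 without AD_B6 replicate 3 and 67 without SJL_B6 replicate 3, the lowest and highest. Of 1245 family medians recomputed, 30 moved by more than the SD between libraries within a group, in 19 families. Leaving out 1 of 4 libraries can seldom move a median that far, so this count says little about stability. Over single libraries left out, the Wnt pathway median ran from -0.36 to 0.10 and the neuronal one from -0.89 to 0.32. That of MHC class II ran from -1.09 to -0.60. Of 520 recomputed differences of Rcan1, App and the 12 genes with the smallest unadjusted p in each direction, 0 changed sign. Nearly all of these genes were chosen by their differences in the same libraries, so a change of sign was unlikely. For medians that moved or changed sign in families described in full, the cause was not tested. With the replicate number as a block, 0 genes passed, with 78 higher and 131 lower at an unadjusted p below 0.05. The correlations of the deviations of same-numbered libraries were 0.0231, 0.0166, 0.0491 and 0.0659. Those of different-numbered libraries ran from -0.0806 to 0.0925, a range that holds the same-numbered values. Such small correlations cannot settle whether the numbers pair the samples. The SD within a group is above the typical difference at every level.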
